A study of Mus musculus with 3 samples.

Results

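The proteasome genes are the protein-coding genes of GENCODE M21 whose symbol starts with Psma, Psmb, Psmc, Psmd, Psme, Psmf or Psmg, without the immunoproteasome genes Psmb8, Psmb9 and Psmb10. Of 47 such genes, 46 had at least 1 transcript in the deposited mRNA table, among 12392 protein-coding genes listed there. Psmb11 had no listed transcript. The 46 genes hold 216 of the 56651 listed transcripts, and the reads of a gene are the sum over its transcripts. They comprise 8 genes of the alpha ring, 7 of the beta ring, 6 ATPases of the base, 11 further subunits of the regulatory particle, 5 activator genes, 1 inhibitor gene and 7 assembly chaperones. Psmc3ip, taken in by its symbol, encodes no proteasome subunit but a partner of the meiotic recombinases.

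The RNA came from apoptotic bodies (ABs), the membrane-bound fragments that dying cells shed, of bone marrow macrophages (BMMs), preosteoclasts (pOCs) and mature osteoclasts (mOCs) of C57BL/6 mice aged 11 weeks, with 1 library each. By the sample labels, all cells were raised from marrow with M-CSF at 50 ng/ml for 72 h. The pOCs then had RANKL at 100 ng/ml with M-CSF at 30 ng/ml for 24 h and the mOCs for 72 h or more, and all cells received alendronate at 500 μM for 12 h. The study's methods name staurosporine as the inducer and a longer culture of the mOCs instead, and the sample titles name the cells, whereas the description of the series speaks of ABs. The 3 comparisons carry the study's names: G1 sets pOC-ABs over BMM-ABs, G2 sets mOC-ABs over BMM-ABs, and G3 sets mOC-ABs over pOC-ABs. Each library enters 2 of them. Where 3 values stand side by side, they are those of the macrophage, preosteoclast and mature osteoclast ABs, in this order. With no replicates, no test between the groups was possible and no difference can be set against a spread between samples. All intervals printed here are exact 95% intervals of counting error alone, and the reads carry no molecular identifiers.

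The proteasome is the barrel-shaped protease that degrades ubiquitin-tagged proteins. Its core particle stacks rings of alpha subunits, which gate the entry, around rings of beta subunits, of which Psmb5, Psmb6 and Psmb7 encode the catalytic ones. The regulatory particle binds ubiquitin chains, removes them and threads the protein into the core with a ring of ATPases. Other caps, encoded by Psme genes, open the core without ATP, and dedicated chaperones assemble the rings. In osteoclast precursors the proteasome is known for degrading the inhibitor of NF-kappaB after RANK signalling, and proteasome inhibitors reduce osteoclast formation. The transcription factor NRF1, encoded by Nfe2l1, is known to drive proteasome genes through antioxidant response elements.

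Windows from 250 bases before to 50 bases after the start site (RefSeq, GRCm38.p6) were at hand for 38 of the 46 genes. The ETS core CCGGAAG was found on either strand in 15 of these 38 genes (39.5%), against 9.93% of all 27025 genes with a window. Among the 8684 protein-coding genes that had both a window and at least 20 reads in these libraries, the share was 22.2%. The antioxidant response element core TGACNNNGC was in 6 of 38 (15.8%), namely Psmb5, Psmb6, Psmc6, Psmd9, Psmd12 and Psme4, against 14.0% of all and 16.9% of those protein-coding genes. The CCAAT box was in 13 (34.2%) against 41.1% and 43.7%, and the SP1 core GGGCGG was in 22 (57.9%) against 38.2% and 69.9%. The palindrome part GCATGCGC was in 3 (7.89%) against 3.05% and 6.47%. The shares of the first motif were thus further apart than those of the second. The upstream 250 bases, 5′ to 3′ on the gene's strand, are shown for 3 of the genes with large G1 ratios (Psma6, with the second of its listed start sites, Psmc6 and Psmd12) and for 2 catalytic genes (Psmb5 and Psmb6), with the matches to CCGGAAG and TGACNNNGC, or to their reverse complements, in capitals.
Psma6 (chr12:55398575-55398824, plus strand): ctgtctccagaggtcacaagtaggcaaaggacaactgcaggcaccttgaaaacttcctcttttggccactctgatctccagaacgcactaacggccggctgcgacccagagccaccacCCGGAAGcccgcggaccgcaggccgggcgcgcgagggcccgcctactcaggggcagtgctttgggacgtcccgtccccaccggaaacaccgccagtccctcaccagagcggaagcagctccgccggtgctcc
Psmc6 (chr14:45329574-45329823, plus strand): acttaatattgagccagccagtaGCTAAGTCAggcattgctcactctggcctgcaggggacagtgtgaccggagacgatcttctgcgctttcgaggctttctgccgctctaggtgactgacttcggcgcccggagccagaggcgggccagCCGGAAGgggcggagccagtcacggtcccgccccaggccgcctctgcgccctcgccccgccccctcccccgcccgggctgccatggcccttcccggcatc
Psmd12 (chr11:107479278-107479527, plus strand): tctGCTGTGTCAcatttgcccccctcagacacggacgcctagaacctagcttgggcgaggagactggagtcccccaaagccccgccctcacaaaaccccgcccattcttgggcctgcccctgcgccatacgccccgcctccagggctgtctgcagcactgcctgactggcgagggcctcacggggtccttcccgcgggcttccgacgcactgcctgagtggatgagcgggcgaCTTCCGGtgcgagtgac
Psmb5 (chr14:54617996-54618245, minus strand): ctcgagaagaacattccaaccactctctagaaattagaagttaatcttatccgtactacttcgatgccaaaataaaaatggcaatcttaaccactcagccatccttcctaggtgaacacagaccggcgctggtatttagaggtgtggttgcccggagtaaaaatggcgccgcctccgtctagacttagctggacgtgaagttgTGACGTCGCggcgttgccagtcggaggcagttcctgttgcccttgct
Psmb6 (chr11:70525107-70525356, plus strand): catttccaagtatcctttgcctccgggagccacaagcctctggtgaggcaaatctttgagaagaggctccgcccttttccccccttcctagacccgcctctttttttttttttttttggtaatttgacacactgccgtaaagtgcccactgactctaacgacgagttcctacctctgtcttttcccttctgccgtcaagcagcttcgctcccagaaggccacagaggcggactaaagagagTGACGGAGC
Psmc6 and Psmd12 held both motifs, Psma6 the ETS core alone, and Psmb5 and Psmb6 the antioxidant response element core alone, at 47 and 9 bases before the start site. Of other genes with large G1 ratios, Psma2 (0.70) and Psma3 (0.68) held neither motif, and Psmc3ip (1.24) held the ETS core. The window of the first listed start site of Psma6 held neither. Whether the ratios go with the motifs was not tested. A match is a run of letters and no evidence of binding.

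The mRNA table held 9100082, 7387317 and 7705592 reads. The reads of the lncRNA table were 28.5%, 37.7% and 33.3% of both tables together. Osteoclast markers (11 of 12 listed, Calcr not listed) summed to 592, 889 and 2704 per 1000000 reads of the mRNA table, with Oscar at 0 in BMM-ABs and Itgb3 at 0 in mOC-ABs. Macrophage markers (8 of 8 listed) summed to 2748, 1465 and 1412. Of 17 markers of other marrow cells, 4 were listed, summing to 2.75, 2.17 and 4.93. In mOC-ABs that sum was the 38 reads of Kdr, with Cd3d, Cd79a and Cdh5 at 0. The part of these markers and of the lncRNA share in the ratios below was not tested, and less RNA of a gene per AB cannot be told apart from fewer ABs of cells that express it.

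The proteasome genes took 38198, 38302 and 36498 reads. These are 0.420% (0.416% to 0.424%), 0.518% (0.513% to 0.524%) and 0.474% (0.469% to 0.479%) of the mRNA reads. The share was thus lowest in BMM-ABs and highest in pOC-ABs, and none of the 3 intervals overlap. On the log2 scale the summed reads were higher by 0.30 (0.28 to 0.33) for G1. The value for G2 was 0.17 (0.15 to 0.20). For G3 it was -0.13 (-0.15 to -0.11). All 46 genes had over 200 reads in the 3 libraries together. Per length, their median FPKM was 50.8, 69.4 and 54.1, against 15.2, 14.6 and 13.7 for all protein-coding genes with at least 20 reads. Psmb6, which encodes the caspase-like subunit, had the highest FPKM of all members, at 281, 410 and 264. Psmd5 and Psma8 were among the lowest, at 8.57 to 8.98 and 7.66 to 8.89.

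**Figure D1:**
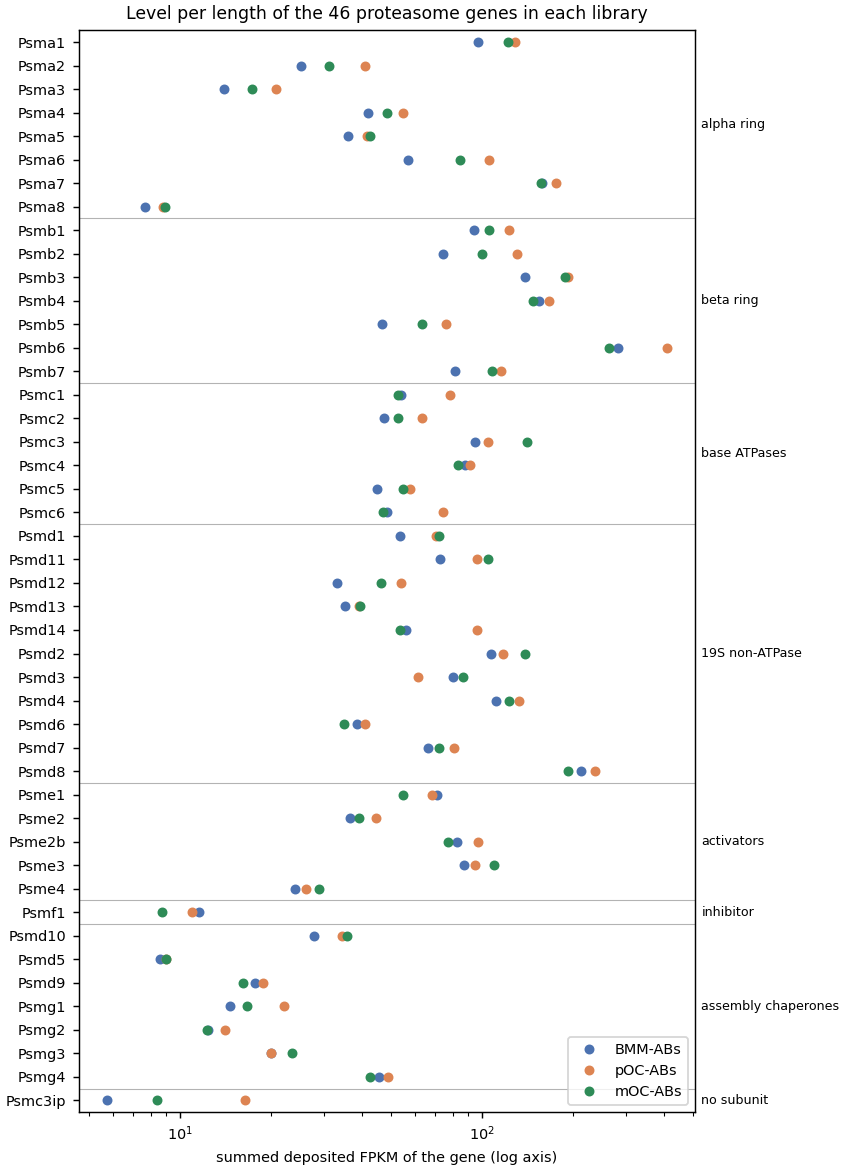
Summed deposited FPKM of each of the 46 genes (horizontal log axis) in each library, grouped by role, with blue points for BMM-ABs, orange points for pOC-ABs and green points for mOC-ABs. Psmb6 lies farthest right, with its orange point at 410.

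Gene by gene, the median log2 ratios of G1, G2 and G3 were 0.26, 0.19 and -0.20, against -0.046, -0.089 and -0.053 for the 10999 protein-coding genes with at least 20 reads. The members' median thus lay 0.30 and 0.28 above that of all genes in G1 and G2 and 0.14 below it in G3 (difference -0.14). In G1, 44 of 46 ratios were above 0, beside 46.4% of all genes, with an interval wholly above 0 for 35 genes and wholly below 0 for 1. In G2, 34 were above 0, beside 42.1%, with 23 intervals above and 3 below. In G3, 12 were above 0, beside 44.9%, with 4 intervals above and 25 below. The percentages are shares of ratios above 0. Intervals were not counted over all genes, so the interval counts have no background and depend on read numbers. By share of the mRNA reads, 34 genes had their highest value in pOC-ABs, 12 in mOC-ABs and 0 in BMM-ABs. Of all genes, 41.9% were highest in BMM-ABs, 32.8% in pOC-ABs and the remaining 25.4% in mOC-ABs.

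A small limit of 0.32 on the log2 scale in either direction (25% higher or 20% lower) was set beside the 2-fold limit of the study. In G1, 21 of 46 genes were higher by more than this small limit, beside 22.8% of all genes, and 1 was lower, beside 29.4%. In G2, 12 were higher, beside 17.6%, and 0 were lower, beside 32.8%. In G3, 1 was higher, beside 18% of all genes, and 11 were lower, beside 27.4%. At the 2-fold limit of the study, the only gene was Psmc3ip in G1, beside 9.35% of all genes, and there was none in G2 or G3, beside 12.4% and 9.28%. These single-library counts have no replicate check. The study's own limits also used an adjusted p, which could not be computed here.

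The ratios depend on what stands for the library size. Divided by the reads of the mRNA and lncRNA tables together, the members' medians were 0.059, 0.088 and -0.096 and those of all genes -0.24, -0.19 and 0.046. A change of the library total moves every gene of a comparison by the same amount, so the difference between the medians does not depend on it. The members past the small limit were then 12 higher and 1 lower for G1, beside 13.8% and 44.1% of all genes. For G2 they were 5 and 1, beside 13.1% and 39.6%, and for G3 4 and 5, beside 24.7% and 21.7%. Above the median of all genes lay 45 of the 46 genes in G1, 38 in G2 and 14 in G3.

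**Figure D2:**
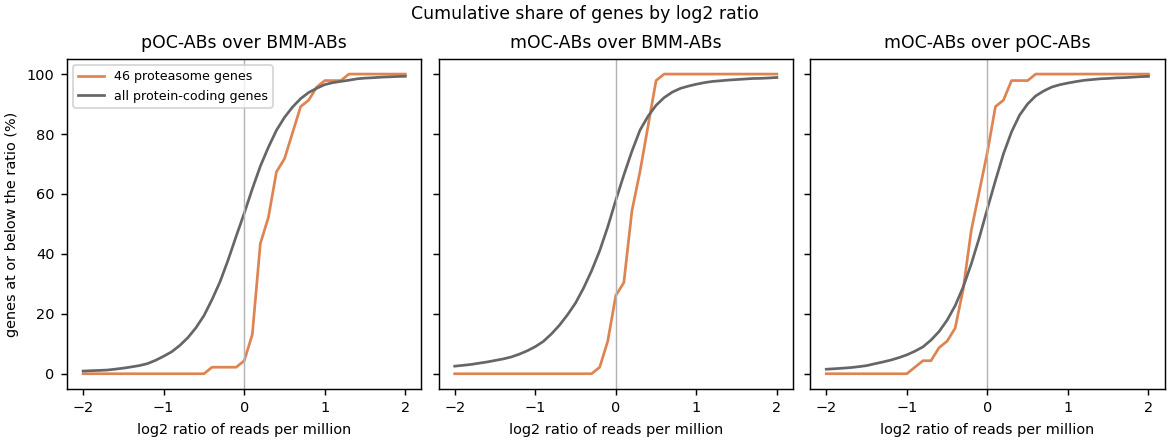
Share of genes (vertical, percent) at or below each log2 ratio (horizontal) of the share of mRNA reads for the 46 proteasome genes (orange) and the 10999 protein-coding genes with at least 20 reads (grey), 1 panel per comparison. The orange curve runs to the right of the grey one around its middle in the first and second panels and to the left in the third.

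Among the alpha ring genes, the 8 ratios of G1 ranged from 0.14 to 0.88. Of them, 5 passed the small limit, beside 22.8% of all genes. Psma6, the alpha1 subunit, had 532, 794 and 662 reads, a G1 ratio of 0.88 (0.72 to 1.04) and a G2 ratio of 0.56 (0.39 to 0.72), the highest member in G2. Psma2, the alpha2 subunit, had 666, 881 and 696 reads, with 0.70 (0.56 to 0.85) in G1 and -0.40 (-0.55 to -0.26) in G3. Both were highest in pOC-ABs and lowest in BMM-ABs. Psma3 had 239, 311 and 272 reads, with 0.68 (0.43 to 0.93) in G1 and 0.43 (0.17 to 0.68) in G2. Psma8, the alpha subunit known from testis, had 118, 110 and 116 reads on its 1 listed transcript. No 75-base stretch of that transcript occurred in another gene, and its 3 intervals all held 0. Summed, the ratios of the alpha ring genes were 0.44, 0.24 and -0.19.

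All 7 beta ring genes had a G1 ratio above 0, beside 46.4% of all genes, and 6 passed the small limit, beside 22.8%. All 7 had a G3 ratio below 0, whereas 44.9% of all genes were above 0 in G3. Psmb5, the chymotrypsin-like subunit and the main target of clinical proteasome inhibitors, had 376, 493 and 429 reads, and its G1 ratio was 0.69 (0.50 to 0.89). Psmb6 had 2026, 2383 and 1606 reads, with 0.53 (0.45 to 0.62) in G1, -0.10 in G2 and -0.63 (-0.72 to -0.54) in G3. Psmb7, the trypsin-like subunit, had 878, 1013 and 991 reads, with 0.51 (0.38 to 0.64), 0.41 (0.28 to 0.55) and -0.09 (-0.22 to 0.04). The 3 catalytic genes thus shared the direction of G1, and in mOC-ABs Psmb6 alone of them was below its BMM-AB level. Psmb2, the beta4 subunit, had 569, 822 and 650 reads, with 0.83 (0.68 to 0.99), 0.43 (0.27 to 0.60) and -0.40 (-0.55 to -0.25). The summed beta ring differed by 0.45, 0.16 and -0.29.

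The base ATPases gave 0.41, 0.14 and -0.27 when summed. Psmc6, which encodes 1 of the 6 ATPases, had 597, 946 and 554 reads. Its G1 ratio of 0.96 (0.82 to 1.12) was the largest of any subunit, beside 0.13 (-0.04 to 0.30) for G2 and -0.83 (-0.99 to -0.68) for G3. It was thus high in pOC-ABs alone, and the same held for Psmc1, with 744, 876 and 633 reads and ratios of 0.54 (0.39 to 0.68), 0.01 and -0.53 (-0.68 to -0.38). Psmc3 was highest in mOC-ABs, with 1161, 1074 and 1243 reads and a G3 ratio of 0.15 (0.03 to 0.27).

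The further subunits of the regulatory particle gave 0.19, 0.17 and -0.02 when summed, and their single ratios ranged from -0.40 (Psmd3) to 0.70 in G1. Psmd14, the deubiquitinase of the lid, had 657, 848 and 570 reads, with 0.67 (0.52 to 0.82) in G1, 0.04 in G2 and -0.63 (-0.79 to -0.48) in G3. Psmd12, a scaffold of the lid, had 575, 756 and 679 reads, with 0.70 (0.54 to 0.85) in G1 and 0.48 (0.32 to 0.64) in G2. Psmd3, another lid scaffold, went the other way. It had 1587, 973 and 1445 reads, so that it was low in pOC-ABs alone, with -0.40 (-0.52 to -0.29) in G1 and 0.51 (0.39 to 0.63) in G3. It was the only member past the small limit on the lower side of G1 and on the higher side of G3, and it is named because of these counts. Among these 11 genes, those with the most reads were Psmd2 (2798, 2460 and 3077), a docking site for ubiquitin receptors, Psmd8 (2861, 2614 and 2210) of the lid and Psmd1 (1410, 1510 and 1595), the other large subunit of the base. Of these, Psmd2 and Psmd1 had their highest share of the reads in mOC-ABs, and Psmd8 in pOC-ABs.

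**Figure D3:**
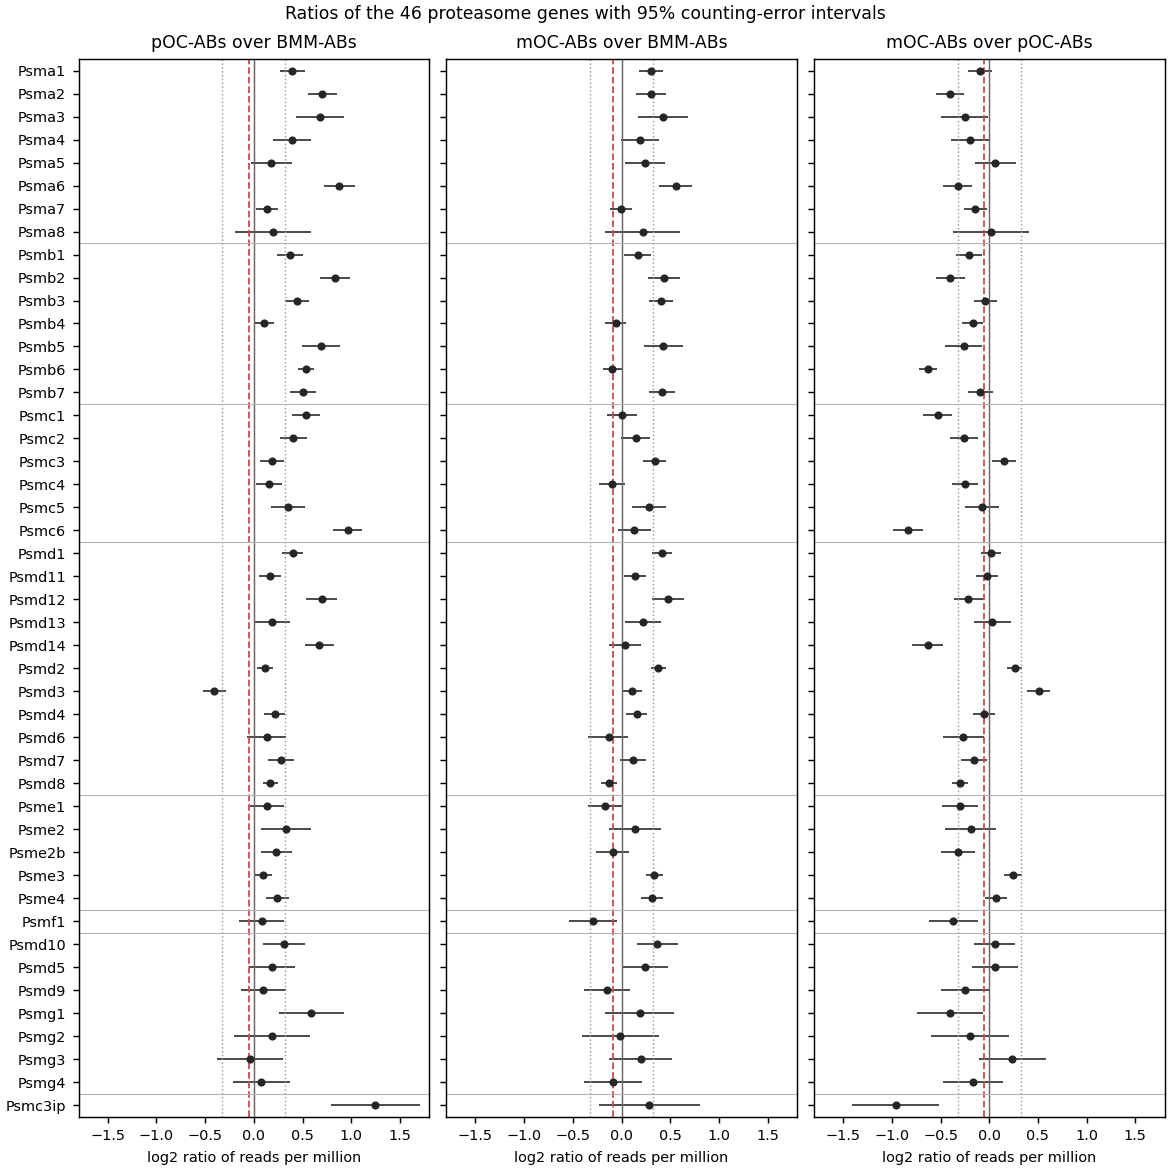
Log2 ratio of the reads per library total (horizontal) of the 46 genes in G1 (left), G2 (middle) and G3 (right), with 95% intervals of counting error as bars, the small limits of 0.32 as dotted lines and the median of all protein-coding genes as a red dashed line. In the left panel Psmd3 is the only subunit left of the lower limit, and in the right panel Psmc6, Psmb6 and Psmd14 lie farthest left among the subunits.

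The activator genes did not share 1 order. Psme1 and Psme2, whose products form the interferon-induced PA28 ring, had 585, 521 and 441 reads and 248, 253 and 231 reads, with G3 ratios of -0.30 (-0.49 to -0.12) and -0.19 (-0.46 to 0.07). Psme3, the nuclear PA28 gamma, had 1992, 1728 and 2130 reads, with 0.34 (0.25 to 0.43) in G2 and 0.24 (0.15 to 0.33) in G3. Psme4, the PA200 cap, had 1231, 1180 and 1292 reads, with 0.31 (0.20 to 0.42) in G2 and 0.07 in G3. By value, Psme3 and Psme4 were highest in mOC-ABs and Psme1 and Psme2 in pOC-ABs. Psmf1, the inhibitor PI31, had 339, 291 and 235 reads and the lowest G2 ratio of the members, -0.29 (-0.53 to -0.04).

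The chaperones held few reads, so that most of their intervals held 0. Psmg1, Psmg2, Psmg3 and Psmg4, which assemble the alpha ring, had G1 ratios of 0.59 (0.26 to 0.93), 0.19, -0.04 and 0.08 from 139, 170 and 134, 119, 110 and 100, 167, 132 and 162, and 217, 186 and 173 reads, gene by gene. Of these, the interval of Psmg1 alone excluded 0 in G1. Psmd5, Psmd9 and Psmd10, which hold the ATPases during assembly of the base, had G1 ratios of 0.19, 0.10 and 0.31 from 301, 278 and 302, 344, 299 and 262, and 359, 361 and 392 reads, gene by gene. Psmd10, also known as gankyrin, had intervals above 0 in both G1 and G2, 0.31 (0.09 to 0.52) and 0.37 (0.16 to 0.58).

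Psmc3ip had 64, 123 and 66 reads and a G1 ratio of 1.24 (0.80 to 1.70), the largest of the members. Its retained-intron transcript Psmc3ip-202 had 1, 83 and 41 reads. The protein-coding transcript Psmc3ip-201 had 45, 17 and 16 reads, and the G1 ratio over protein-coding transcripts alone was reversed, at -1.10. Psmc3ip overlaps Mlx on the opposite strand, which had 280, 464 and 557 reads. The library kit as described gives no strand, so reads of both genes cannot be told apart where they overlap. Of the stretches of Psmc3ip-202, compared as for Psma8, 0.209% occurred in another gene, against 25.6% of those of Psmc3ip-201. Whether reads of Mlx entered the counts of either transcript was not tested. In all, 21 members overlap another annotated gene, 12 of them a protein-coding one.

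Some members share stretches with copies elsewhere, between which reads could be split. No 75-base window of 26 members occurred in another gene, 11 members shared over 10% of their windows and 1 shared over 50%. Psme2b, with 628, 599 and 499 reads, shared 60.2% of its windows with Psme2. The 2 together had 876, 852 and 730 reads, 0.26 (0.12 to 0.40) in G1 and -0.02 (-0.17 to 0.12) in G2. Psmb5 shared 40.9% of its windows, and with the pseudogene Gm3375 it had 681, 885 and 850 reads, 0.68 (0.53 to 0.83) in G1 and 0.56 (0.41 to 0.71) in G2. For Psma5, 2 pseudogenes held more reads (521, 439 and 455) than the gene itself (397, 365 and 397), and gene and copies together gave 0.11 (-0.03 to 0.25) in G1. For Psma3 and its 3 copies the G1 ratio was 0.57 (0.39 to 0.74). With the copies added, the G1 ratios of these genes thus kept their sign.

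Below the level of genes, the libraries differed in which annotated transcript the reads were assigned to. Of 144 member transcripts with at least 20 reads, 44 differed by more than 2-fold in G1 (30.6%, beside 37.1% of all 32755 transcripts), 55 in G2 (38.2%, beside 39.1%) and 43 in G3 (29.9%, beside 36.7%). These shares are close to or below those of all transcripts. The transcript with most reads was the same in the 3 libraries for 40 genes, 7 of which have 1 listed transcript, and differed for Psmc3, Psmc3ip, Psmc4, Psmd2, Psmd8 and Psme2. Such changes were not counted over all genes, so they cannot be called particular to the members.

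In Psmd2 the transcript Psmd2-206, annotated as a target of nonsense-mediated decay, had 1547, 0 and 3 reads. That is 55.3% (53.4% to 57.1%) of the gene's reads in BMM-ABs and 0 of 2460 reads in pOC-ABs. The exact upper limit of the share in pOC-ABs was 0.1498%. The coding transcript Psmd2-201 had 1212, 2421 and 3044 reads. The gene's total differed by 0.12 (0.04 to 0.19) in G1, whereas Psmd2-201 differed by 1.30 (1.20 to 1.40). Of the windows of Psmd2-206, 97.5% also occur in other transcripts of the gene, so few reads can tell the pair apart.

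In Psmc4 the protein-coding Psmc4-206 had 0, 0 and 457 reads, 55.9% (52.4% to 59.3%) of the gene in mOC-ABs, while Psmc4-201 had 513, 629 and 217. In Psmd8 the share of Psmd8-201 was 22.0% (20.4% to 23.5%), 21.4% (19.8% to 23.0%) and 75.5% (73.7% to 77.3%). In Psmc3 the share of Psmc3-210 was 10.7% (8.96% to 12.6%), 3.63% (2.59% to 4.93%) and 45.0% (42.2% to 47.8%). These 3 genes stood apart in mOC-ABs. In Psme2 it was pOC-ABs, with Psme2-201 at 60.9% (54.5% to 67.0%), 14.6% (10.5% to 19.6%) and 73.2% (67.0% to 78.8%) and Psme2-208 at 23.4%, 61.7% and 16.9%. All windows of Psme2-201 and Psmc3-210, and 93.8% of those of Psmc4-206 and 98.1% of those of Psmd8-201, occur in other transcripts of the gene.

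**Figure D4:**
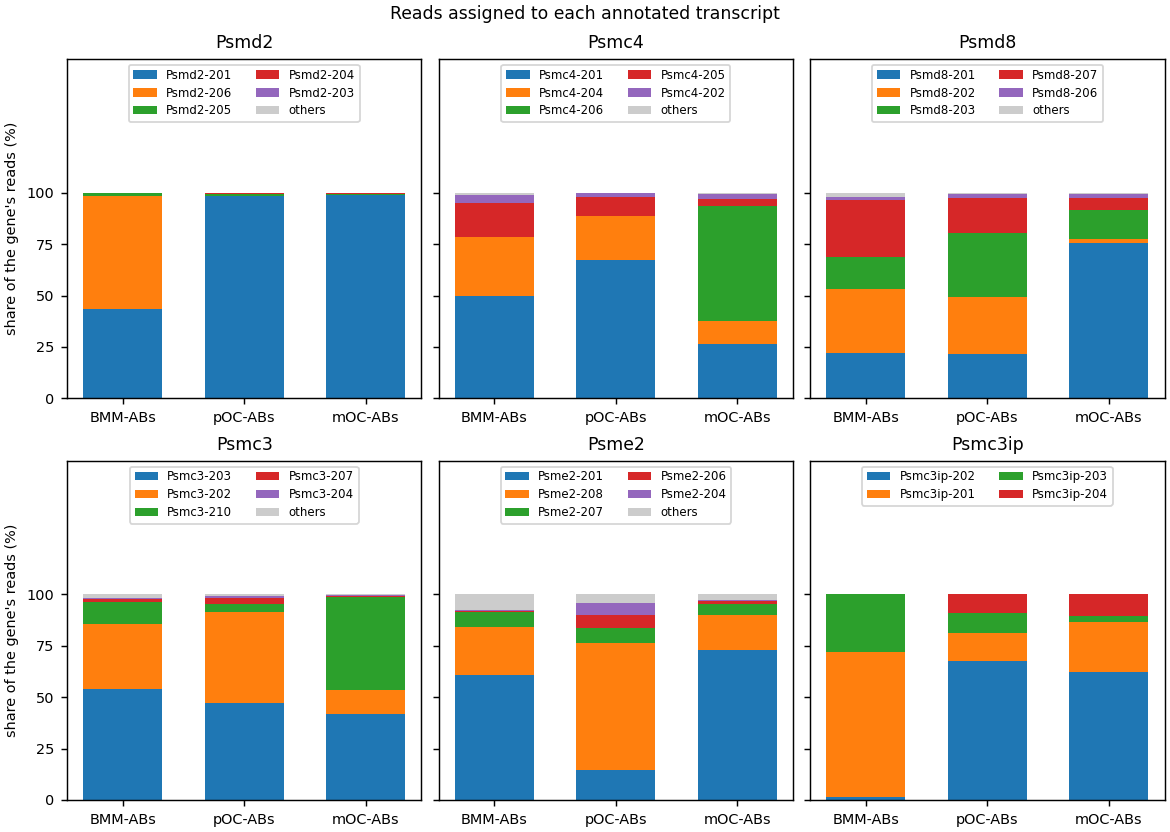
Share of the gene's reads (vertical, percent) assigned to each annotated transcript in the 3 libraries for the 6 genes whose leading transcript differed, with the 5 transcripts of most reads in colour and the rest in grey. Psmd2-206 fills 55.3% of the bar in BMM-ABs and 0% in pOC-ABs, and Psmc4-206 is seen in mOC-ABs alone.

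By annotated type, protein-coding transcripts took 87.7% (87.4% to 88.1%), 94.4% (94.2% to 94.7%) and 95.5% (95.3% to 95.7%) of the members' reads, lowest in BMM-ABs. Over all protein-coding genes these shares were 90.2%, 91.5% and 91.9%. Without Psmd2 and Psmd11 the members' shares were 92.4%, 94.3% and 95.4%. In BMM-ABs the members then lay above all genes and not below. Psmd2 and Psmd11 had many BMM-AB reads on other transcript types. No such genes were left out of all genes, so the comparison is uneven. Retained introns took 6.70%, 3.65% and 3.16% of the members' reads, against 5.80%, 4.95% and 4.39% over all genes. Decay targets took 4.39%, 0.655% and 0.759%, against 2.38%, 2.09% and 2.18%. Without Psmd2 and Psmd11, a lid scaffold whose retained-intron transcript Psmd11-204 had 465, 6 and 5 reads, the decay targets took 0.270%, 0.456% and 0.50%. In BMM-ABs 1547 of the 1675 reads on decay targets were those of Psmd2-206. Counted over protein-coding transcripts alone, the members' medians were 0.38, 0.26 and -0.16 in G1, G2 and G3.

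Few other RNAs were seen at these loci. The 26 lncRNA transcripts overlapping 17 members had 238, 164 and 118 reads in all, with at most 34 for any of them in a library. The circRNA table listed 2 junctions in members, in Psmd2 (0, 2 and 2 reads) and Psmd14 (2, 0 and 0).

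Of the other genes of the pathway, the immunoproteasome genes Psmb8, Psmb9 and Psmb10, whose products replace the catalytic subunits after interferon, had 323, 412 and 190, 114, 103 and 59, and 131, 140 and 128 reads. Psmb8 was higher by 0.65 (0.44 to 0.87) in G1 and, unlike its constitutive counterpart Psmb5, below BMM-ABs in mOC-ABs, by value (-0.53 against 0.43). The G3 ratio of Psmb8 was -1.18 (-1.43 to -0.93). Of 24 further listed genes (Paaf1 was not listed), 12 were past the small limit on the higher side and 0 on the lower in G1, 7 and 1 for G2, and 1 and 6 for G3, with medians of 0.28, 0.15 and -0.11. The shares of all genes are those given for the members, 22.8% and 29.4%, 17.6% and 32.8%, and 18% and 27.4%, so that the 6 of 24 on the lower side of G3 are close to the background. Nfe2l1 had 957, 1519 and 1235 reads, with 0.97 (0.85 to 1.09) in G1 and 0.61 in G2. The other genes of its list did not share this order. Nfe2l2, a related factor, had 1803, 1624 and 1284 reads, with 0.15 in G1 and -0.25 in G2. Ddi2, the protease that activates NRF1, had 1272, 868 and 809 reads, with -0.25 (-0.38 to -0.12) in G1 and -0.41 (-0.54 to -0.28) in G2. Ngly1, which removes its sugar chains, had 155, 113 and 187 reads, with -0.16 (-0.52 to 0.20) and 0.51 (0.20 to 0.83). Rad23b, a shuttle for ubiquitylated proteins, had 2224, 3217 and 3445 reads and a G1 ratio of 0.83, and Uchl5, a deubiquitinase of the base, had 179, 272 and 175 reads and 0.90 (0.63 to 1.18). Txnl1, which binds the regulatory particle, was high in pOC-ABs alone, with 613, 793 and 539 reads, as Psmc6 was.

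Slc25a1, Cryzl1, Rab2a and Slirp were among the 5 genes outside the family whose 3 levels were nearest to those of the summed members, and their centred log2 levels differed from the members' sum by at most 0.0089. Of 9101 genes with at least 200 reads compared, 679 lay within 0.1, so this pattern over 3 libraries is not particular to the members. How many genes lie near other patterns was not counted.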

How the data were processed

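Total RNA of ABs was extracted and, by the study's methods, poly-A RNA was selected on poly-T beads before sequencing, with 1 library for each of the 3 kinds of AB. Groups were taken from the sample titles, and the columns of the tables, named by hours of RANKL, were matched to them. The authors deposited transcript read counts and FPKM for mRNAs and lncRNAs, and junction read counts for circRNAs. The submitters' processing notes name FastQC, HISAT2 and StringTie and the build GRCm38, and their versions are not given in the sources used here. Deposited lncRNA FPKM and SRPBM were not used.

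Transcripts were assigned to genes by identifier with GENCODE M21, which held 56422 of 56651. Counts were summed per gene, including all transcript types, and divided by the mRNA total, with no pseudocount. Levels between genes used summed deposited FPKM. Ratios have exact binomial (Clopper-Pearson) intervals at 95%. The procedure was tested on simulated independent Poisson counts with known ratios. Those counts hold no error from assigning reads to transcripts and no spread between samples, so the test does not cover these. Background was counted over 10999 protein-coding genes with at least 20 reads in all. Limits were 0.32 on the log2 scale and the study's 2-fold. A share of 0 was given its exact upper limit. With 1 library per group no test was made. Python 3.11.15, pandas 2.3.3 and scipy 1.17.1 were used.

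The genes named in full are the catalytic, activator, inhibitor and chaperone genes, the 5 members with most reads, the 5 with the largest ratio in each comparison, the 10 transcripts whose share of their gene's reads ranged most, and the 5 non-member genes of nearest levels. Results of 2 genes that these rules or lists hold are not reported here. Members and lists were chosen with earlier results of these data known.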

Additional observations from a re-analysis of the deposited data

How the results depend on the processing

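Divided by both tables' reads, the summed members differed by 0.11, 0.074 and -0.032 in G1, G2 and G3, with medians of 0.059 and 0.088 in G1 and G2, 12, 5 and 4 members higher by more than 0.32 (beside 13.8%, 13.1% and 24.7% of all genes) and, in G2 and G3, 1 and 5 lower (beside 39.6% and 21.7%). By construction this follows the lncRNA share. With size factors by median of ratios the sums were 0.21 in G2 and -0.084 in G3, and with the upper quartile 0.36, 0.25 and -0.11, with 2 genes past 2-fold in G1. With summed FPKM the sums were 0.34 in G1 and -0.18 in G3. With it 2 genes were lower in G2 (beside 34.03% of all genes) and 2 were higher in G3 (beside 17.96%). With protein-coding transcripts alone the sums were 0.41 in G1 and 0.30 in G2, with 2 and 1 genes lower (beside 29.2% and 31.3% of all genes). In that setting 3 and 2 genes were past 2-fold in G1 and G2 and 2 were higher in G3 (beside 21.5%). Psmc3ip was reversed there at -1.10 in G1. Member transcripts past 2-fold numbered 81, 91 and 76 of 216 without a filter and 11, 16 and 17 with at least 200 reads. For these transcripts, no share over all was counted. The same holds for genes past 2-fold with the upper quartile or with protein-coding transcripts alone. Chosen after seeing the data, the 31 genes of core and regulatory particle alone (without Psma8) gave sums of 0.33 in G1 and -0.15 in G3. Of them 0 were past 2-fold in G1 (beside 9.35% of all genes) and 7 were lower in G3 (beside 27.4%). Also chosen so, the set without members sharing over 10% of windows gave sums of 0.15 in G2 and -0.17 in G3. The other 114 summary values tried stayed within their limits. These were the counting interval for sums and 1.5 times the count for counts. For medians the limit was a wider interval from the spread over the member genes, which are not replicates. Of 486 values of named genes, 443 stayed within the counting interval, 42 moved and 1 reversed. No paired analysis was possible because each group has 1 library, and none could be left out.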
